A study of Mus musculus with 6 samples.

Results

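Lhx8, its neighbouring transcript AI606473 and Lhx6 were examined in 6 microarrays of dissected mouse ear tissue. They were taken as all probe sets that the annotation of the Mouse Genome 430 2.0 array gives to those names, which were 4 of 45101 probe sets and 3 of 18193 genes with a probe set of their own. Lhx8 and AI606473 had 1 probe set each and Lhx6 had 2. The genes were selected on their measured differences between the same Mest-KO and control arrays that are described here, so those differences are given as descriptions without a test.

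In the Mest-KO pools Tbx1 was deleted conditionally by T-Cre, a Cre recombinase driven by regulatory sequence of the mesodermal gene T (brachyury). The control pools carried T-Cre as well and were heterozygous for the conditional Tbx1 allele, so they had lost 1 copy of Tbx1 in the same cells and are not wild type. All embryos were at embryonic day 11.5. Otic vesicle, the sac that forms the inner ear, was dissected with the periotic mesenchyme around it, and each array held left and right ears of 3 pooled embryos of 1 genotype, with 3 arrays per genotype. The study asked which genes of this tissue depend on Tbx1 in mesoderm. Tbx1 itself read 520, 578 and 410 in Mest-KO arrays, against 525, 567 and 447 in control arrays, and the groups overlapped. This does not check the labels, because otic epithelium also makes Tbx1 and the position of its probe set relative to the deleted part is not given in the sources used here.

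Lhx6 and Lhx8 are LIM homeodomain transcription factors, which bind DNA through a homeodomain and bind cofactors such as Ldb1 through paired LIM domains. In mouse embryos they are known from the mesenchyme of the first pharyngeal arch, the tissue of the jaws, where Fgf8 from the oral ectoderm induces them and where they act together in palate and tooth formation. They are also known from the ventral forebrain, where Lhx6 acts in cortical interneurons and Lhx8 in cholinergic neurons. AI606473 is listed by RefSeq as a long noncoding RNA.

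In the RefSeq annotation of GRCm38.p6, Lhx8 lies on the minus strand and AI606473 on the plus strand of chromosome 3, and they are transcribed away from each other. Their start sites are 261 bases apart. Lhx6 lies on chromosome 2 and has 3 listed starts. The 260 bases between the Lhx8 and AI606473 starts are shown because they lie upstream of both transcripts, which had nearly the same pattern over the arrays. They span chr3:154330561-154330820 in GRCm38.p6 and are intergenic between the annotated starts. They are written on the minus strand, 5′ to 3′ toward Lhx8, and capitals mark the only match to any of the motifs that were searched for.
Lhx8 to AI606473 stretch: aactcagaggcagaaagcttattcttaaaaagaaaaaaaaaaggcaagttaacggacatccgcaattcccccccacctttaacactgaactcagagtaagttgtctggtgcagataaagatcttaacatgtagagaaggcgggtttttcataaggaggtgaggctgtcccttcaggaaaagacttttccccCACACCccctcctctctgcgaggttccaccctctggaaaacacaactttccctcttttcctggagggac

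The capitals mark CACACC, which is the reverse complement of GGTGTG, the short core element bound by T-box factors, at 69 to 64 bases before the Lhx8 start. GGTGTG was found on either strand in 16.3% of the 32851 windows of 250 bases before a start in the RefSeq table. The full T-box core AGGTGTGA (1.12% of windows), the homeodomain core TAATTA (4.84%), the forkhead core TAAACA (12%), TATAAA (12.4%), CCAAT (33.8%) and the E-box CANNTG (66.2%) had 0 matches in the stretch. Both strands were searched, and AGGTGTGA contains GGTGTG. A match is a description of the letters and not a binding site, and a missing match says only that the letters are not in this stretch. Of the 3 Lhx6 windows, 0 held GGTGTG, 2 held CCAAT and 1 held an E-box. The 250 bases before the Lhx8 start were 46.0% G or C with 4 CpG, and those before the AI606473 start 45.2% with 4 CpG, against a median of 52.4% and 6 CpG over all windows. The 3 Lhx6 windows had 61.6%, 57.2% and 46.0%.

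Lhx8 was lower in every Mest-KO array than in every control array. Its probe set 1427300_at read 242, 303 and 926 in Mest-KO pools 1, 2 and 3, against 1993, 2061 and 1560 in control pools 1, 2 and 3. The values are intensities on the authors' linear scale. Mest-KO pools 1 and 2 were low and close to each other, Mest-KO 3 lay between them and the controls, and the groups did not overlap. The mean was 490.2 ± 378.3 in Mest-KO and 1871 ± 272.0 in control (SD, n = 3 arrays each), and the ratio of the means, Mest-KO over control, was 0.262. On the log2(intensity + 16) scale used for all differences below, Lhx8 differed by -2.14 ± 0.37 (SE, Mest-KO minus control), with a 95% interval from -2.95 to -1.32. In bulk tissue, fewer cells that make a transcript and less transcript per cell cannot be told apart.

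AI606473, the noncoding transcript that starts next to Lhx8, followed the same order of arrays within Mest-KO. Its probe set 1456935_at read 54.1, 61.1 and 234 in Mest-KO pools 1, 2 and 3, against 934, 849 and 570 in control pools 1, 2 and 3. Again Mest-KO 3 was the highest of its group, control 3 the lowest of its own, and the groups did not overlap. The mean was 116.3 ± 101.6 in Mest-KO and 784.7 ± 190.6 in control (SD, n = 3 arrays each), a ratio of 0.148. On the log2 scale it differed by -2.83 ± 0.40, and the 95% interval reached from -3.70 to -1.95. Of 14170 genes tested, AI606473 had the third lowest log2 difference and Lhx8 the seventh lowest, so that 0.0494% of genes lay at or below Lhx8. Every Mest-KO array was below every control array for 5.22% of the genes tested and above every control array for 9.32%, 14.5% in all.

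**Figure D1:**
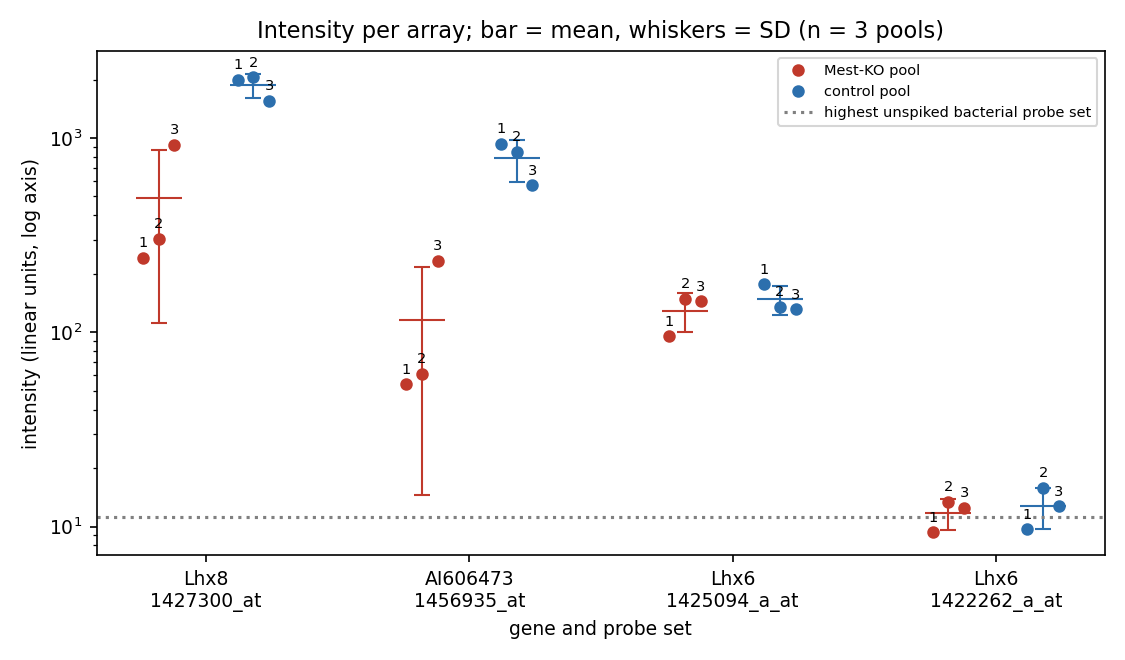
Intensity (linear units on a log axis) of the 4 probe sets in each array, with Mest-KO pools left of control pools, pool numbers beside the points, bars for means and whiskers for SD (n = 3 pools). Lhx8 and AI606473 were lower in all Mest-KO pools with Mest-KO 3 the highest of them, while the groups overlapped for both Lhx6 probe sets.

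Lhx6, the close relative of Lhx8, did not share this pattern. Its brighter probe set 1425094_a_at read 95.3, 149 and 144 in Mest-KO pools 1, 2 and 3, against 177, 135 and 131 in control pools 1, 2 and 3. The groups overlapped, with Mest-KO 1 the lowest and control 1 the highest array. The mean was 129.4 ± 29.6 in Mest-KO and 147.8 ± 25.6 in control (SD, n = 3 arrays each). Lhx6 differed by -0.18 ± 0.19 on the log2 scale, and the 95% interval, -0.59 to 0.23, held both decreases and increases. It was -0.00086 without Mest-KO 1, -0.06 without control 1 and -0.28 without Mest-KO 2.

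The dimmer Lhx6 probe set 1422262_a_at read 9.33, 13.4 and 12.5 in Mest-KO pools 1, 2 and 3, against 9.67, 15.9 and 12.7 in control pools 1, 2 and 3. The array also carries probe sets for bacterial RNAs, and 27 of these had no RNA added. Their highest reading, called the unspiked reading below, was 11.2, and the dimmer Lhx6 probe set exceeded it on 4 of 6 arrays. Its log2 difference over all 45037 probe sets was -0.05 ± 0.14. At this signal a difference was hardly detectable.

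Lhx8 and AI606473 varied much more among Mest-KO pools than among control pools. The SD of log2 values within Mest-KO was 1.00 for Lhx8 and 1.02 for AI606473, against 0.22 and 0.37 within control. The median SD over all genes was 0.13 in Mest-KO and 0.13 in control. Within Mest-KO, 23 of 14170 genes had an SD at least that of Lhx8 and 18 at least that of AI606473, these genes included. For Lhx6 the SD was 0.32 in Mest-KO and 0.22 in control.

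Mest-KO 3 exceeded the higher of Mest-KO 1 and 2 by 1.56 for Lhx8 and by 1.69 for AI606473 on the log2 scale. At a limit of 1 on that scale, chosen after these values were seen, 7 of 14170 genes (0.0494%) had Mest-KO 3 so far above both other Mest-KO arrays, and of these only Lhx8 and AI606473 were also lower in every Mest-KO array than in every control array. Relative to the control mean, the log2 difference of Lhx8 was -2.86 in Mest-KO 1, -2.56 in Mest-KO 2 and -0.99 in Mest-KO 3. For AI606473 these differences were -3.48, -3.35 and -1.65. Without Mest-KO 3 the group difference was -2.71 ± 0.15 for Lhx8 and -3.41 ± 0.20 for AI606473, and without Mest-KO 1 it was -1.77 ± 0.35 and -2.50 ± 0.41.

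AI606473 differed by more than Lhx8. The log2 value of AI606473 minus that of Lhx8, set to a mean of 0 over the 6 arrays, was -0.28, -0.45 and -0.31 in Mest-KO pools 1, 2 and 3, against 0.52, 0.34 and 0.18 in control pools 1, 2 and 3. The groups did not overlap, and the mean difference between groups was -0.69. The size depended on the constant added before the logarithm, with -0.86 for a constant of 1 and -0.35 for 64, and the groups stayed apart with each. This compares changes and not levels, since probe sets differ in how strongly they bind.

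Genes with the most similar pattern were ranked by the root mean square difference between log2 profiles over the 6 arrays, each profile centred on its own mean. For Lhx8 the closest of 14169 other genes was AI606473, at 0.36, and for AI606473 it was Lhx8. The next for Lhx8 were Mup10 (0.52), 1 of a family of near-identical urinary protein genes and therefore uncertain, Pax1 (0.60), a transcription factor of pharyngeal endoderm and axial skeleton, Clu (0.68), encoding the secreted chaperone clusterin, Fam162b (0.71) and Tafa4 (0.72), encoding a secreted peptide. For AI606473, Mup10, Pax1, Clu and Fam162b followed Lhx8 in that order, at 0.78 to 0.93. The log2 differences of these 5 genes lay between -1.49 and -1.30, and a profile distance grows where 2 differences are unequal in size. Lhx6 was at rank 633 for Lhx8 and at rank 711 for AI606473.

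Pax1 read 76.1, 82.3 and 150 in Mest-KO pools 1, 2 and 3, against 491, 193 and 287 in control pools 1, 2 and 3, so Mest-KO 3 was the highest of its group there too. Clu read 600, 626 and 593 in Mest-KO pools, against 1916, 1641 and 1643 in control pools. Its Mest-KO arrays lay close together, unlike those of Lhx8. For Lhx6 the closest genes were Got1l1 (0.04), Fam13a (0.05), Tram2 (0.07), Cxcl14 (0.07) and Mr1 (0.07), and Lhx8 and AI606473 were at ranks 14155 and 14164 of 14169. None of these 5 had a log2 difference beyond -0.21.

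**Figure D2:**
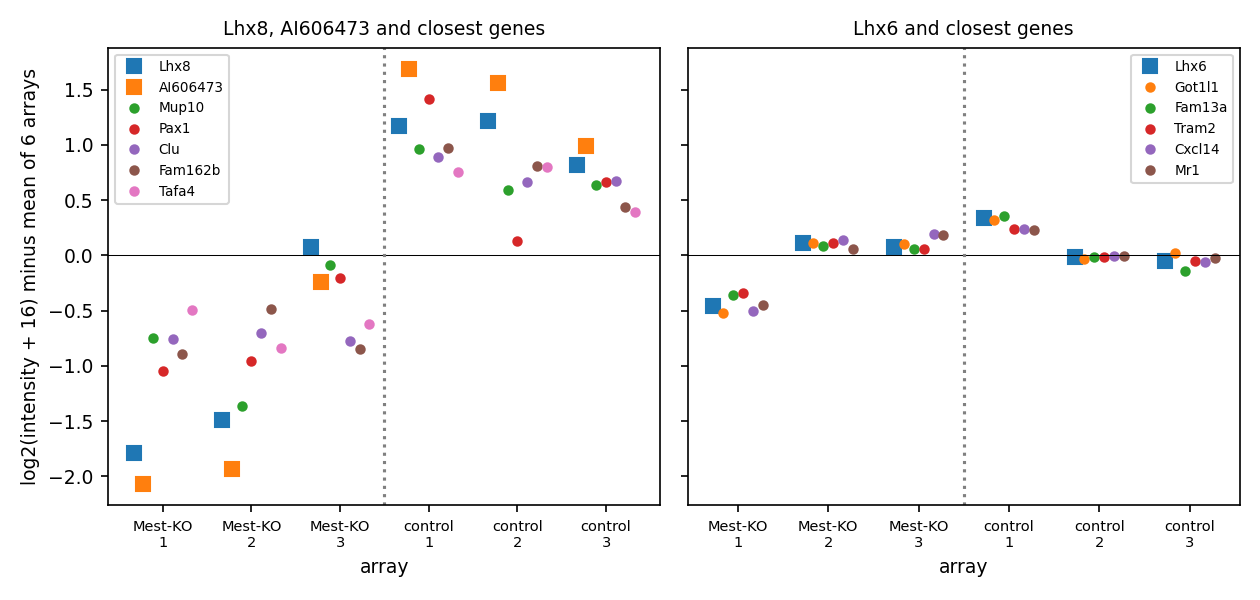
log2(intensity + 16) minus the mean of the 6 arrays, per array, for Lhx8, AI606473 and the closest named genes (left) and for Lhx6 and its closest genes (right), with Mest-KO arrays left of the dotted line. Lhx8 and AI606473 lie far below 0 in Mest-KO 1 and 2, near 0 in Mest-KO 3 and above 0 in all controls, whereas Lhx6 stays within 0.5 of 0 on every array.

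Head-to-head gene pairs were collected from the RefSeq start table to set the Lhx8 and AI606473 pair beside others. The table held 1665 pairs on opposite strands, pointing apart, with starts at most 1000 bases from each other, and both genes were tested in 724. Among the 723 other pairs, both partners had a difference of the same sign in 362 (50.1%). In 10 of them both partners had groups that did not overlap, in the same direction, beside 9.32% of single genes higher and 5.22% lower without overlap, and nothing is read from that count. Both partners differed at least 1.5-fold in the same direction in 1 other pair, Foxl2os and Foxl2 (1.68 ± 0.20 and 0.94 ± 0.17), a noncoding transcript and a forkhead gene, and at least 2-fold in 0. The distance limit and the fold limits were chosen after the Lhx8 values were seen, and only pairs in the table with both genes above the intensity filter were counted.

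**Figure D3:**
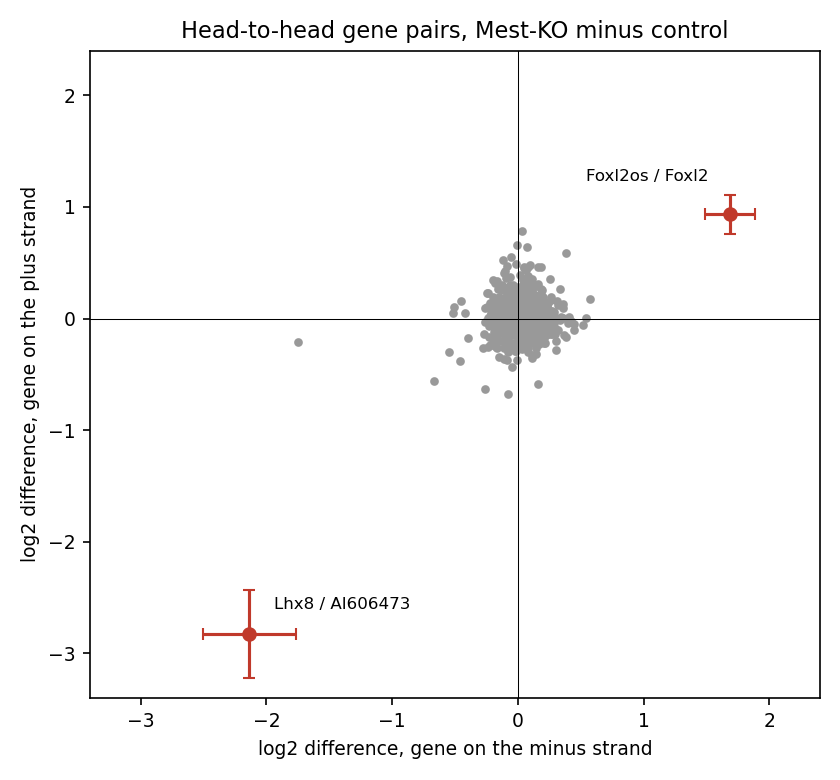
Log2 difference (Mest-KO minus control) of the gene on the minus strand against that of its partner on the plus strand for 724 head-to-head pairs, with SE bars on both labelled pairs. Lhx8 and AI606473 lie at -2.14 and -2.83, Foxl2os and Foxl2 at 1.68 and 0.94, and the other pairs gather around 0.

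The other genes around Lhx8 had small differences. Of the 20 RefSeq genes nearest to Lhx8, 10 on each side and AI606473 left out, 8 had a probe set of their own. Of these, 6 were tested and 0 passed, beside 0.148% of all genes (limma with Benjamini-Hochberg adjustment over all genes). The nearest tested on each side were Acadm, encoding a fatty acid dehydrogenase of mitochondria (0.07 ± 0.10, limma adjusted p = 0.890), and Tyw3, encoding a tRNA-modifying enzyme (-0.01 ± 0.14, limma adjusted p = 0.990). The largest difference among the 6 was that of Lrriq3 (0.14 ± 0.17), and 0 of the 6 had an unadjusted p under 0.05, against 8.97% of all genes. Of the 20 genes nearest to Lhx6, 7 were tested and 0 passed, beside the same 0.148% of all genes. The nearest were Morn5 (-0.43 ± 0.18, limma adjusted p = 0.523) and Rbm18, encoding an RNA-binding protein (-0.03 ± 0.10, limma adjusted p = 0.954). Morn5 read 20.4, 22.8 and 18.5 in Mest-KO arrays, against 44.4, 28.0 and 29.0 in control arrays, at low signal, and was the only 1 of the 7 with an unadjusted p under 0.05. The median difference of all 13 tested neighbours was -0.03, beside 0.01 for all genes. Nothing is read from the counts on either chromosome, with 6 and 7 genes tested.

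**Figure D4:**
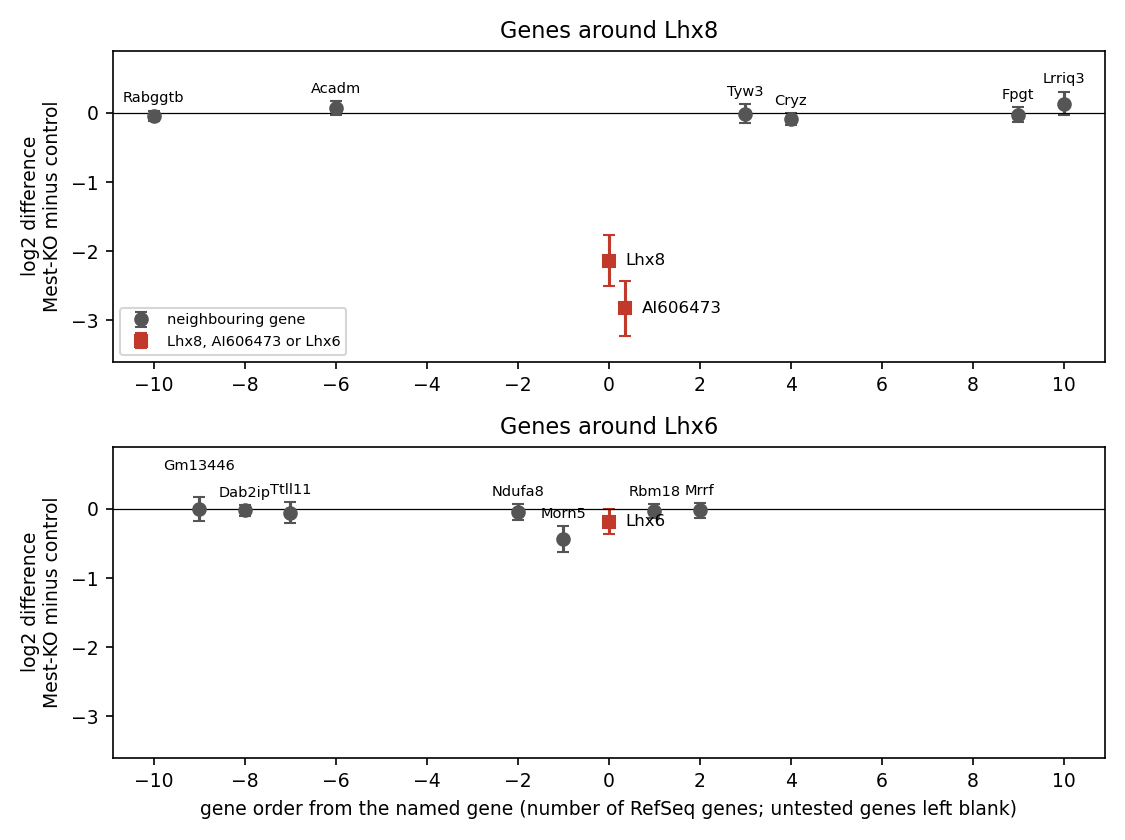
Log2 difference (Mest-KO minus control, points, with SE bars) of tested genes by their order on either side of Lhx8 (top) and Lhx6 (bottom), with the named genes as squares. Lhx8 and AI606473 lie at -2.14 and -2.83, and the tested neighbours on both chromosomes lie between -0.43 and 0.14.

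Across the array, 21 of 14170 genes passed at an adjusted p under 0.05, or 0.148% (limma). In Mest-KO 12 were higher (0.0847%) and 9 lower (0.0635%), and of the 3 genes AI606473 was among those lower, from which nothing is read since it was selected on this difference. Lhx8 and Lhx6 did not pass, though Lhx8 did in 3 of 16 alternatives, with median centring, with array weights and without Mest-KO 3. The call of AI606473 held in 8 of 16 alternatives. It was lost without Mest-KO 1 or 2, without control 1 or 3, without a filter, with eBayes without trend, with the mean of all probe sets and with the replicate number as a block. These tallies describe how the calls depend on the setting and are not a test, since the 3 genes were selected on this contrast. Centring each array on its median gave 102 calls, 29 of them higher and 73 lower.

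The first arch mesenchyme genes, named for the tissue in which Lhx6 and Lhx8 are known best, were below 0 more often than above. Of 34 listed, 32 had a probe set and 30 were tested, of which 1 rose, 0 fell and 29 did not pass (limma, adjusted over all genes). Over all genes, 0.0847% passed as higher and 0.0635% as lower. The median difference was -0.13, beside 0.01 over all genes, with 19 below 0 and 11 above. Over 16 alternatives this median ran from -0.21 to -0.0027, and it was nearest 0 without Mest-KO 1. At an unadjusted p under 0.05, 3 were higher and 7 lower, against 8.97% of all genes in either direction. The groups did not overlap for 3 higher and 7 lower, against 9.32% of all genes higher and 5.22% lower. Hand2, a transcription factor that patterns the lower jaw, rose. It read 121, 119 and 197 in Mest-KO pools, against 15.8, 15.2 and 34.3 in control pools, and differed by 2.10 ± 0.24 (limma, adjusted p = 0.0105). The call was lost without Mest-KO 1, without control 1, without a filter, with eBayes without trend and with the mean of all probe sets. The difference was 1.06 with the mean of all probe sets, 1.28 with a constant of 64 and 2.75 with a constant of 1. Other genes of the list that did not pass, picked with their values in view, had differences of 0.98 ± 0.17 for Gsc, a homeobox gene of arch mesenchyme, -0.96 ± 0.19 for the forkhead gene Foxf1, -1.18 ± 0.29 for Tbx22, a T-box gene of palate mesenchyme, and -0.43 ± 0.10 and -0.46 ± 0.11 for the homeobox genes Msx2 and Msx1. The 6 genes of the Dlx family tested, which pattern the arches along their axis, had differences from -0.20 to 0.25.

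Genes that signal in the first arch included the known inducer of Lhx6 and Lhx8. Fgf8 was at or below the highest unspiked reading on all 6 arrays, so no difference can be given for it. Of the 18 tested of 20 listed, 0 passed in either direction, beside 0.148% of all genes (limma, adjusted over all genes), from which nothing is read. At an unadjusted p under 0.05, 1 was higher and 3 were lower, against 8.97% of all genes in either direction. The median was -0.09. The smallest p belonged to Shh, a hedgehog ligand (-1.5 ± 0.27, limma adjusted p = 0.0806), Ptch1, its receptor (-0.25 ± 0.06), Spry2, an inhibitor of receptor tyrosine kinase signalling that FGF induces (0.20 ± 0.07), and the ligand gene Bmp2 (-0.44 ± 0.15). Shh read 376, 233 and 164 in Mest-KO pools 1, 2 and 3, against 738, 519 and 971 in control pools 1, 2 and 3. It was lowest in Mest-KO 3, the pool in which Lhx8 was highest of its group.

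The other LIM homeobox genes went both ways. All 10 were tested and 0 passed, beside 0.148% of all genes (limma, adjusted over all genes), from which nothing is read. At an unadjusted p under 0.05, 3 were higher and 3 lower, against 8.97% of all genes in either direction. The median was -0.23. Isl2, a factor of motor and sensory neurons, had the smallest p (0.73 ± 0.14, limma adjusted p = 0.0926) and read 724, 548 and 592 in Mest-KO pools, against 375, 408 and 318 in control pools. Lhx9 (-1.55 ± 0.42), Lhx1 (-1.75 ± 0.52) and Lmx1b (-0.55 ± 0.16), which act among other places in the developing neural tube, did not pass. Lhx1 read 46.3, 114 and 29.7 in Mest-KO pools 1, 2 and 3, against 395, 75.1 and 360 in control pools 1, 2 and 3, and is also in the hindbrain neural tube marker list. Of the 12 markers tested in that list 11 were below 0, with a median of -1.20, and their summed intensity was likewise low in control 2. Their part in these values was not tested.

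The cofactors that LIM homeodomain proteins work with had small differences. The 10 tested included Ldb1 and Ldb2, which bridge LIM proteins, and the Ssbp proteins that stabilise them. The others were the LIM-only proteins Lmo1 to Lmo4, and Rlim, which marks Ldb proteins for degradation. Of the 10, 0 passed, beside 0.148% of all genes, and 0 had an unadjusted p under 0.05, beside 8.97% (limma). Nothing is read from these counts. All 10 lay between -0.21 and 0.14 with a median of -0.01. The smallest p belonged to Ssbp3 (-0.09 ± 0.07), Ldb2 (0.11 ± 0.09), Ldb1 (0.14 ± 0.12) and Lmo3 (-0.21 ± 0.28).

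Genes that act with or below Lhx6 and Lhx8 in the ventral forebrain were partly below the intensity filter. Of 19 listed, 14 had a probe set and 9 were tested. Of the 9, 1 rose and 0 fell (limma, adjusted over all genes), beside 0.0847% of all genes higher and 0.0635% lower. The median was -0.0032 and kept its sign in 11 of 16 alternatives. Sst, the somatostatin gene, which Lhx6-dependent interneurons make, rose. It read 1149, 1423 and 685 in Mest-KO pools 1, 2 and 3, against 349, 263 and 390 in control pools 1, 2 and 3 (1.61 ± 0.23, limma adjusted p = 0.0256), and the groups did not overlap. Its call was lost under the same 8 of 16 alternatives as that of AI606473. At an unadjusted p under 0.05 (limma), 1 gene of the list was higher and 2 were lower, against 8.97% of all genes in either direction. The lower ones were Gad2 (-1.56 ± 0.39) and Gad1 (-0.96 ± 0.30), which did not pass and whose groups overlapped. The acetylcholine synthesis gene Chat, which in forebrain depends on Lhx8, was at or below the highest unspiked reading on all arrays.

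**Figure D5:**
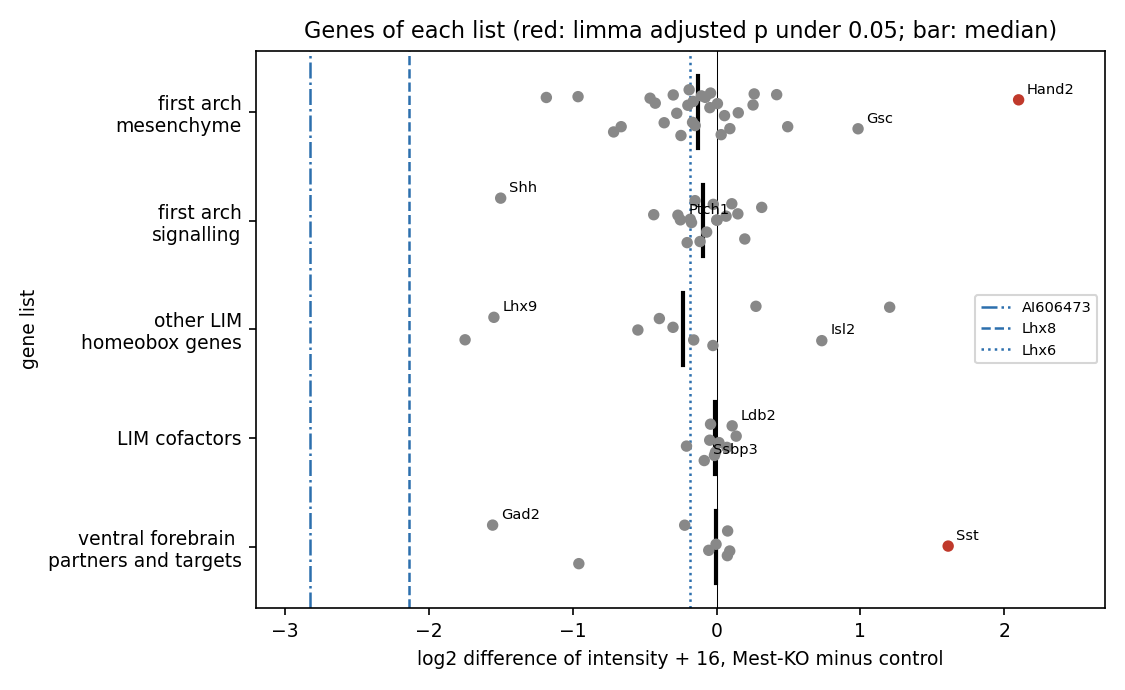
Log2 difference (Mest-KO minus control, intensity + 16) of each tested gene in 5 lists, with red points for limma adjusted p under 0.05, black bars for list medians and vertical lines for AI606473, Lhx8 and Lhx6. Hand2 and Sst are the only red points, and no list gene lies as far below 0 as Lhx8.

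Tissue markers were read to describe the pools. Their lists share genes, such as Dlx5 in the otic and first arch lists and Prrx1 in the periotic and first arch lists. A marker above the unspiked reading therefore does not show that the named structure was in a pool. All 12 otic epithelium markers and all 11 periotic mesenchyme markers measured were above the highest unspiked reading on every array, and 27 of 32 first arch mesenchyme genes were as well. The summed intensity of the first arch list was 25600, 28069 and 28842 in Mest-KO pools 1, 2 and 3, against 28900, 28824 and 30300 in control pools 1, 2 and 3. Mest-KO 1 was the lowest and Mest-KO 3 overlapped the controls, an order that Lhx8 shared within Mest-KO. The sums of the LIM cofactors (16068, 16407 and 17050 in Mest-KO pools 1, 2 and 3) and of the forebrain markers had that order too. Bright genes weigh most in such a sum. Within the list Mn1 had this order (3021, 3501 and 3784), while Msx1 (900, 809 and 685) and Msx2 (649, 597 and 590) had the reverse. Of 11 surface and oral ectoderm markers, 11 were above the unspiked reading on every array. Their sum was 10066, 9506 and 12564 in Mest-KO pools 1, 2 and 3, against 11560, 12842 and 12344 in control pools. In this sum Mest-KO 3 stood with the controls. Within the list Mest-KO 3 was the highest Mest-KO pool for Krt18 (2762, 2410 and 3491) and the lowest for Krt14 (63.1, 57.5 and 51.8). Of the 11 markers, 10 had a log2 difference below 0 and 1 above, with a median of -0.18. The part of all these markers in the Lhx8 and AI606473 values was not tested.

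Markers of 3 neighbouring regions were summed as well. Calls among them stand beside 0.148% of all genes that passed (limma, adjusted over all genes). For pharyngeal endoderm, 7 of 9 markers were above the unspiked reading on every array, Foxn1 and Nkx2-5 were at or below it on all, and the sum ran from 1864 to 2336 in Mest-KO and from 2465 to 3013 in control, without overlap. Of the 7 tested, 5 were below 0 and 2 above. The largest differences were -1.47 for Pax1 and -1.34 for Foxa1. The others were -0.35 for Foxa2, -0.15 for Pax9, -0.03 for Nkx2-3, 0.10 for Hhex and 0.12 for Sox17, so the markers did not differ alike. Foxa1, a forkhead gene of endoderm, was the 1 marker of that list that passed, lower in Mest-KO (limma, adjusted over all genes). Its call held in 10 of 16 alternatives and was lost without Mest-KO 1 or 2, without control 1 or 3, without a filter and with eBayes without trend. For the hindbrain neural tube list, 9 of 16 were above on every array, Olig2 was at or below it on all, and the sum ran from 699 to 1334 in Mest-KO and from 1021 to 2789 in control, where control 2 was the low array. Of the 12 tested, 11 were below 0 and 1, Egr2, was above (0.54 ± 0.18), without passing. Egr2 read 623, 691 and 411 in Mest-KO pools 1, 2 and 3, against 335, 403 and 413 in control pools 1, 2 and 3. It therefore made up much of the Mest-KO sums. Skor1 and Hoxb1 passed, both lower in Mest-KO (limma, adjusted over all genes). Their calls held in 7 of 16 and 5 of 15 alternatives, and both were lost without any 1 of the Mest-KO pools and without control 1 or 3. Lhx8 and AI606473 were not low in control 2. For forebrain, the other region where Lhx8 is known, 3 of 6 were above on every array. Rax was at or below the unspiked reading on all. The sum was 624, 1072 and 1105 in Mest-KO pools 1, 2 and 3, against 1106, 1218 and 1075 in control pools 1, 2 and 3. Lhx8 had the same order of arrays within each group, but its groups did not overlap. Of this sum, Emx2 alone read 564, 1005 and 1044.5 in Mest-KO pools, against 1061.5, 1168 and 1006 in control pools. The part of these regions in the values of Lhx8, AI606473 and Lhx6 was not tested.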

How the data were processed

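The authors deposited 1 linear intensity per probe set and array, for which the submitters' processing notes name Affymetrix Expression Console 1.1. How probes were summarised and background removed is not given in the sources used here. Every array had a trimmed mean (outer 2% left out at each end) of 500.002, so the values are relative to each array's total and a change common to most genes is removed. Medians were 60.0 to 70.6. The number of arrays, 3 per genotype, limits the precision. Per the labels, arrays within a genotype are biological replicates.

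The 64 control probe sets were left out. Genes were named from the platform annotation (34945 probe sets with 1 gene), with symbols checked against RefSeq. Intensities were taken as log2(value + 16), each gene by its brightest probe set on average, and genes above the 30th percentile of probe set means were tested with limma 3.58.1 (R 4.3.3), genotype as the only term, eBayes with trend, two-sided, Benjamini-Hochberg adjustment at 0.05. Errors of log2 differences are standard errors. The steps were tested on simulated data. Sequences, start sites and gene order are from RefSeq, GRCm38.p6. The arrays name no build.

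The members, lists, markers and motifs were chosen with earlier results of these data known. Named genes were the list members past the threshold, otherwise up to 4 with the smallest p, the nearest tested neighbours and the 5 named genes with the closest profile. Motifs, the search for head-to-head pairs and genes marked as chosen later were added after values were seen. Alternatives were quantile normalization, median centring, no filter or the 50th percentile, constants of 1 and 64, eBayes without trend, array weights, the mean of all probe sets, a replicate block and leaving out each array.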

Additional observations from a re-analysis of the deposited data

How the results depend on the processing

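Over the 16 alternatives the difference of Lhx8 ranged from -2.71 to -1.77, that of AI606473 from -3.41 to -2.35 and that of Lhx6 from -0.28 to -0.00086, each with the same sign in all 16. The count of genes past the threshold was 21, and it was 102 with arrays centred on their medians, 2 without a filter, 1 with eBayes without trend and 6 with the mean of all probe sets. Leaving out 1 array gave 2 to 84, with 84 without control 2, 2 without control 1, 3 without Mest-KO 1, 9 without Mest-KO 2 and 6 without control 3. With the replicate number as a block it was 9, but same-numbered pools did not deviate together (correlations -0.03, -0.11 and -0.15). List medians moved little in log2 units, but some moves were as large as the medians or larger. That of first arch mesenchyme was -0.13 in the main fit and -0.0027 without Mest-KO 1. That of the other LIM homeobox genes was -0.23 and ranged from -0.33 to -0.11 over the 16 alternatives. Leaving out 1 array gave -0.16 to -0.0027 for first arch mesenchyme, -0.14 to -0.034 for first arch signalling, -0.023 to 0.050 for LIM cofactors, -0.10 to 0.04 for the ventral forebrain genes and -0.060 to -0.0071 for the genomic neighbours. With median centring first arch signalling was at -0.17, the cofactors at -0.091 and the neighbours at -0.11, and first arch signalling was at -0.13 with the filter at the 50th percentile and at -0.041 with the mean of all probe sets. The causes were not tested. With a constant of 1, 2 of the 5 genes closest to Lhx8 and 3 of those closest to AI606473 and to Lhx6 were shared, and with 64, 2 of those closest to Lhx6.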
